A study of Mus musculus with 6 samples.

Results

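The genes described here encode the RNA-binding rings, small nuclear ribonucleoproteins (snRNPs) and splicing factors of the Lsm, Snrp, Sf3 and Prpf families. They were taken by symbol, as all probe sets whose single gene symbol in the platform table starts with Lsm and a digit, with Snrp, with Sf3a or Sf3b, or with Prpf. This gave 57 probe sets of 44 genes (13 Lsm, 10 Snrp, 9 Sf3 and 12 Prpf) among 21640 named probe sets of 19937 genes. The probe set that represents a gene was chosen by its mean level, the highest over all 6 arrays, so brightness is given only as a description. The families themselves were proposed with earlier results on these arrays in view, among them that of Lsm7. Snrpf and Snrpn, whose symbols also match the rule, had no probe set with their symbol alone and were not analysed here.

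RNA came from primary neurospheres, floating colonies of neural precursors, cultured from hippocampal tissue of male C57BL/6J mice that were 8 to 12 weeks old. All cells were kept in medium with EGF and bFGF, to which either 10 µM norepinephrine or 15 mM KCl was added, and the labels call the day 14 spheres big neurospheres. Each treatment had 3 arrays, called biological replicates without word of separate animals or cultures, so the p-values cover only the spread between such samples, which may be technical. No untreated group was analysed here, so each difference is norepinephrine minus KCl on the log2 scale and gives no direction against untreated cells. The labels do not say how many mice gave the tissue, and each sample is a mixture of all cells in the spheres, in which fewer cells of a type and less RNA per cell cannot be told apart.

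Introns are removed from pre-mRNA by the spliceosome, which is built from U1, U2, U4, U5 and U6 snRNPs. Rings of Sm proteins, encoded by Snrp genes, sit on U1, U2, U4 and U5, and a ring of Lsm proteins that includes Lsm8 sits on the end of U6. A related ring with Lsm1 in place of Lsm8 is cytoplasmic and promotes removal of the mRNA cap before decay. The SF3A and SF3B complexes, encoded by Sf3 genes, belong to the U2 snRNP and help it to hold the intron's branch site, while several Prpf proteins form the U4/U6.U5 tri-snRNP.

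The arrays were not alike. Over the named probe sets KCl replicate 1 had a standard deviation of 1.38 log2 units, against 1.62 to 1.78 elsewhere, with low readings of bright genes and high readings of dim ones. KCl replicate 1 was the lowest of the 6 arrays for 23 of the 44 genes and the highest for 10, whereas it was the lowest for 5442 and the highest for 11070 of all named probe sets. The result of each family is therefore given with and without it. Neural precursor markers were present, with 10 of 11 above the median brightness of all named probe sets, among them Sox2, Vim and Fabp7. Endothelial and pericyte markers lay below that median in 6 of 6 cases and microglial markers in 5 of 6. The 6 astrocyte markers averaged 8.76 to 8.97 on norepinephrine arrays and 7.93 to 8.22 on KCl arrays. The 6 neuron markers averaged 7.75 to 8.02 and 7.53 to 7.64, with 5 of 6 higher with norepinephrine. Of the neuron markers Snap25 differed by 1.03 and Tubb3 by 0.47, while Map2 differed by -0.33. The part of the astrocyte and neuron markers in the differences below was not tested. Lists of dim markers read high on KCl replicate 1. The 6 microglial markers averaged 6.81 there and 5.98 to 6.25 elsewhere, the 6 endothelial and pericyte markers 6.53 and 5.90 to 6.27, and the 5 oligodendrocyte markers 7.44 and 6.95 to 7.18. The dimmest of 5 equal brightness classes of all named probe sets averaged 5.46 there and 4.88 to 5.06 elsewhere, and the part of these lists was not tested.

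Among the 44 genes on 6 arrays Lsm7, a subunit of both Lsm rings, had the largest difference toward norepinephrine, followed by the U2 protein gene Snrpa1 and the Sm ring gene Snrpd2, while the Sm ring gene Snrpe had the largest toward KCl. When KCl replicate 1 was left out, Lsm7 was again the largest and Snrpd2 was next, Snrpa1 and Snrpe stood at 0.27 and -0.094, and Sf3b3 had the largest toward KCl. With 6 arrays 29 of 44 genes had a difference above 0, against 38.0% of all named probe sets, and their median was 0.10 against -0.075. The 44 genes are bright, and of all probe sets in the second brightest and the brightest of 5 equal brightness classes 57.9% and 71.6% were above 0. Without KCl replicate 1 the count was 22 of 44, against 52.2% of all and 52.6% and 47.6% in these classes, and the median was 0.0011 against 0.0083. By limma with Benjamini-Hochberg adjustment over 21640 probe sets, 0 of the 44 genes had an adjusted p under 0.05, against 0% of all, and their lowest adjusted p was 0.939. Without KCl replicate 1 it was again 0 of 44, against 0.0185%, and the lowest adjusted p was 0.455, that of Lsm7.

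At an unadjusted p under 0.05 by limma there were 2 of the 44 genes, Lsm7 and Snrpd2, both toward norepinephrine. Of all probe sets 2.20% lay under 0.05 in that direction and 3.43% in either. Toward norepinephrine there were 149 of 4328 in the second brightest class and 217 of 4328 in the brightest. Lsm7 and Snrpd2 were again the 2 found without KCl replicate 1, beside 2.38% in that direction and 4.63% in either. The class counts toward norepinephrine were then 156 and 176 of 4328. Without KCl replicate 2 the count was 9 of 44, where 16.3% of all probe sets lay under 0.05 in either direction, and Lsm3, Prpf4, Prpf31, Prpf38a, Sf3b6, Snrpa1 and Snrpb2 joined. Without KCl replicate 3 it was 3, beside 3.05% of all, with Snrpa1 and, toward KCl, Snrpe in place of Snrpd2 beside Lsm7. It was 1, Lsm7, without norepinephrine replicate 1 or without norepinephrine replicate 2, beside 1.46% and 2.07%. With 6 arrays the groups did not overlap for 2 genes toward norepinephrine, Lsm7 and Snrpd2, and for 1 toward KCl, Prpf38b. Of all probe sets 4.36% and 4.77% did so. In the second brightest class 316 and 130 of 4328 did so, and in the brightest 407 and 135. Without KCl replicate 1 these were 5 and 2 genes, against 8.13% and 8.08% of all. The second brightest class then had 449 and 332 of 4328, and the brightest 469 and 493. Lsm2, Snrpg and Sf3b4 were added on the norepinephrine side and Lsm14a on the KCl side, all named after their values were seen.

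**Figure D1:**
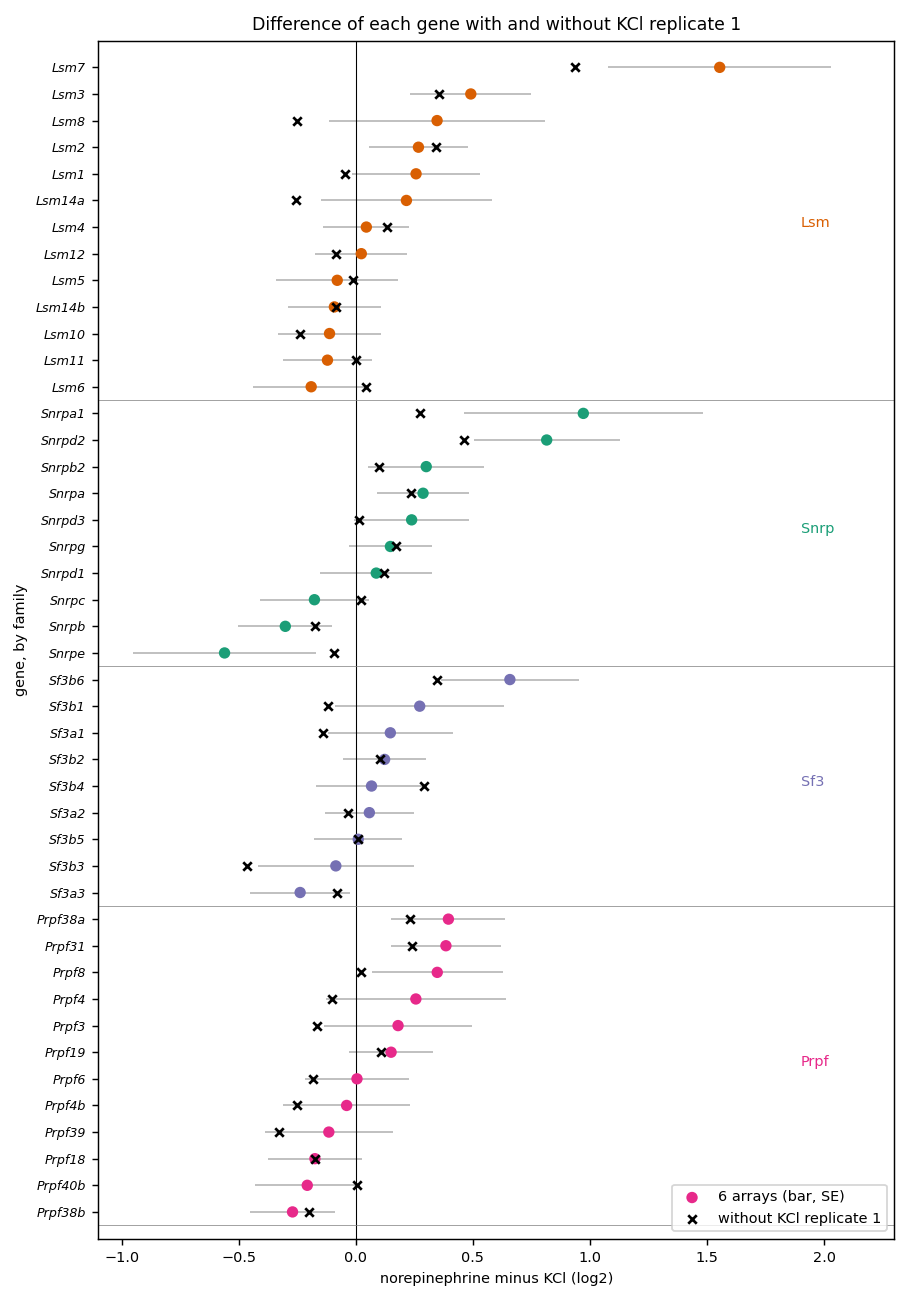
Difference of each of the 44 genes in log2 units (horizontal axis, norepinephrine minus KCl), by family and sorted within it. Filled circles are the values on 6 arrays with their moderated standard error and crosses those without KCl replicate 1. Lsm7 lies farthest right on both, at 1.55 and 0.93, and 29 circles but 22 crosses lie above 0.

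The starts of the genes at the ends of this range on 6 arrays are shown as a description. The RefSeq promoter table of the GRCm38.p6 assembly held 43 windows of 36 of the 44 genes, and the 250 bases before the start are printed 5′ to 3′ for Lsm7, Snrpa1, Snrpd2 and Sf3b6, the 4 genes farthest toward norepinephrine, and Snrpe, the farthest toward KCl. Lsm7 has a further annotated start nearby, which is not printed. Capitals mark matches, on either strand, to the letters searched, which were CCGGAAG (ETS factors), CCAAT (the CCAAT box), TATAAA (the TATA box), GGGCGG (the GC box of Sp and KLF factors), AAGATGG (YY1) and TGACGTCA (the cAMP response element).
Lsm7 at chr10:80855210-80855459, minus strand: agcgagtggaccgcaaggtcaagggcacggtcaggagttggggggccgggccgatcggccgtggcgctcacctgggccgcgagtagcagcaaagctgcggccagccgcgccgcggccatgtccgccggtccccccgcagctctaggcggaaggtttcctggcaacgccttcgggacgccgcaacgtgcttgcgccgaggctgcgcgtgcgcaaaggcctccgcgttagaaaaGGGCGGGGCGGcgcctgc
Snrpa1 at chr7:66060086-66060335, plus strand: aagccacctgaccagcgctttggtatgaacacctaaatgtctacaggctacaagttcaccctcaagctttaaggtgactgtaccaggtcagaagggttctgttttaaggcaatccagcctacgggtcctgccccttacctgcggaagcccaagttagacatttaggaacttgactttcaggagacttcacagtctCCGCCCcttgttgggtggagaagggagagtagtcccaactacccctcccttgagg
Snrpd2 at chr7:19149588-19149837, plus strand: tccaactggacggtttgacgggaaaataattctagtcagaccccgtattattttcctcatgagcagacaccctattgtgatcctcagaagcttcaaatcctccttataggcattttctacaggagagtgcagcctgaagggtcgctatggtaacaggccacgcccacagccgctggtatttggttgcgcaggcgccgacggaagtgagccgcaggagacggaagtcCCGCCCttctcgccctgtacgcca
Sf3b6 at chr12:4817358-4817607, plus strand: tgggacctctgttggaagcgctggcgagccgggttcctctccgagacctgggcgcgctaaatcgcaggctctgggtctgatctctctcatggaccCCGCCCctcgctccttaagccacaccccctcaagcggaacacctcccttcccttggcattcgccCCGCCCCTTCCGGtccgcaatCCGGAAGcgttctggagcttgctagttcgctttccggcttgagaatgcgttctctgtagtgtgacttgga
Snrpe at chr1:133610281-133610530, minus strand: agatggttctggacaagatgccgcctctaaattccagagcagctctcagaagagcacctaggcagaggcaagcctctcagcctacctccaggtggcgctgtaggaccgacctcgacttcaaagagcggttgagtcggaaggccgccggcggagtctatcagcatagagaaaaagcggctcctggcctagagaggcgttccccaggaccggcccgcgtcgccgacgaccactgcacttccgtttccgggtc

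The Lsm7 window held overlapping GC box matches near its end, the Snrpd2 window held a single one, as did the Snrpa1 window, and the Sf3b6 window held GC box and ETS letters, of which a GC box and an ETS match lay end to end. The Snrpe window held none of the letters searched, which says nothing of the factors themselves. Over the 43 windows the GC box letters were in 23, or 53.5%, where 32.7% of all 32851 windows held them. ETS letters were in 14, or 32.6%, against 6.91%, and CCAAT was in 17, or 39.5%, against 33.8%. The TATA box letters were in 2, or 4.65%, against 12.4%, and the YY1 letters in 1, or 2.33%, against 4.49%. The cAMP response element, to which CREB proteins bind, was in 3 windows, or 6.98%, against 1.55%, and these belonged to Lsm2, Snrpa and Snrpg. Windows of 1 gene can overlap, and a match is a run of letters, not a site shown to be bound in these cells.

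The Lsm genes were read first. Lsm2 to Lsm7 encode the subunits that both rings share. Lsm7, on probe set 10364373, read 10.50, 9.98 and 10.11 on norepinephrine replicates 1, 2 and 3 and 7.40, 9.52 and 9.00 on the KCl replicates. All 3 norepinephrine arrays lay above all 3 KCl arrays, and KCl replicate 1 was far below the other KCl arrays. The difference was 1.55 ± 0.48 (log2 difference ± SE, n = 3 per group), a 2.94-fold difference, and 0.93 ± 0.22, or 1.91-fold, without KCl replicate 1. Over the removal of each array in turn it ranged from 0.93 to 1.99.

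The other Lsm7 probe set, 10371002, read 9.93, 9.52 and 9.50 with norepinephrine and 7.82, 9.16 and 8.71 with KCl, again with no overlap. Its difference was 1.09, and 0.71 without KCl replicate 1, so both probe sets had the same order of groups. After a further quantile normalization the difference of the first was 1.57, and after cyclic loess normalization 1.40.

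Lsm3, another shared subunit, read 10.17, 10.14 and 10.16 with norepinephrine and 9.40, 10.24 and 9.37 with KCl. The norepinephrine arrays were tightly grouped, but KCl replicate 2 lay above them, so the groups overlapped. The difference was 0.49 ± 0.26, and 0.35 ± 0.24 without KCl replicate 1. The remaining shared subunits stood at 0.27 (Lsm2), 0.045 (Lsm4), -0.080 (Lsm5) and -0.19 (Lsm6). The 6 shared subunits thus lay on both sides of 0. Their median was 0.16 with 4 of 6 above 0, and 0.24 with 5 of 6 above 0 without KCl replicate 1.

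The subunits that tell the rings apart were next. Lsm8, of the nuclear U6 ring, read 8.57, 8.72 and 8.46 with norepinephrine and 7.04, 9.15 and 8.52 with KCl. KCl replicate 1 was the lowest and KCl replicate 2 the highest of the 6 arrays. Its difference of 0.35 ± 0.46 turned to -0.25 ± 0.21 without KCl replicate 1. Lsm1, of the cytoplasmic decay ring, read 7.75, 7.48 and 7.66 against 6.76, 7.78 and 7.57, and its difference was 0.26 ± 0.28, or -0.047 ± 0.17 without that array. For both genes the sign rested on KCl replicate 1.

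Lsm10 and Lsm11 take the places of Sm proteins D1 and D2 in the U7 snRNP, which cuts histone pre-mRNA. They stood at -0.11 and -0.12 on 6 arrays and at -0.24 and -0.00052 without KCl replicate 1. Lsm14a, an RNA-binding protein of cytoplasmic P-bodies, stood at 0.22 on 6 arrays and -0.26 without KCl replicate 1, where its 3 norepinephrine arrays all lay below the other 2 KCl arrays. Its relative Lsm14b stood at -0.092 and -0.086, and Lsm12 at 0.023 and -0.084. Over the 13 Lsm genes 8 were above 0 with a median of 0.045, which was -0.012 with 5 of 13 above 0 without KCl replicate 1 and -0.035 after a further quantile normalization.

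**Figure D2:**
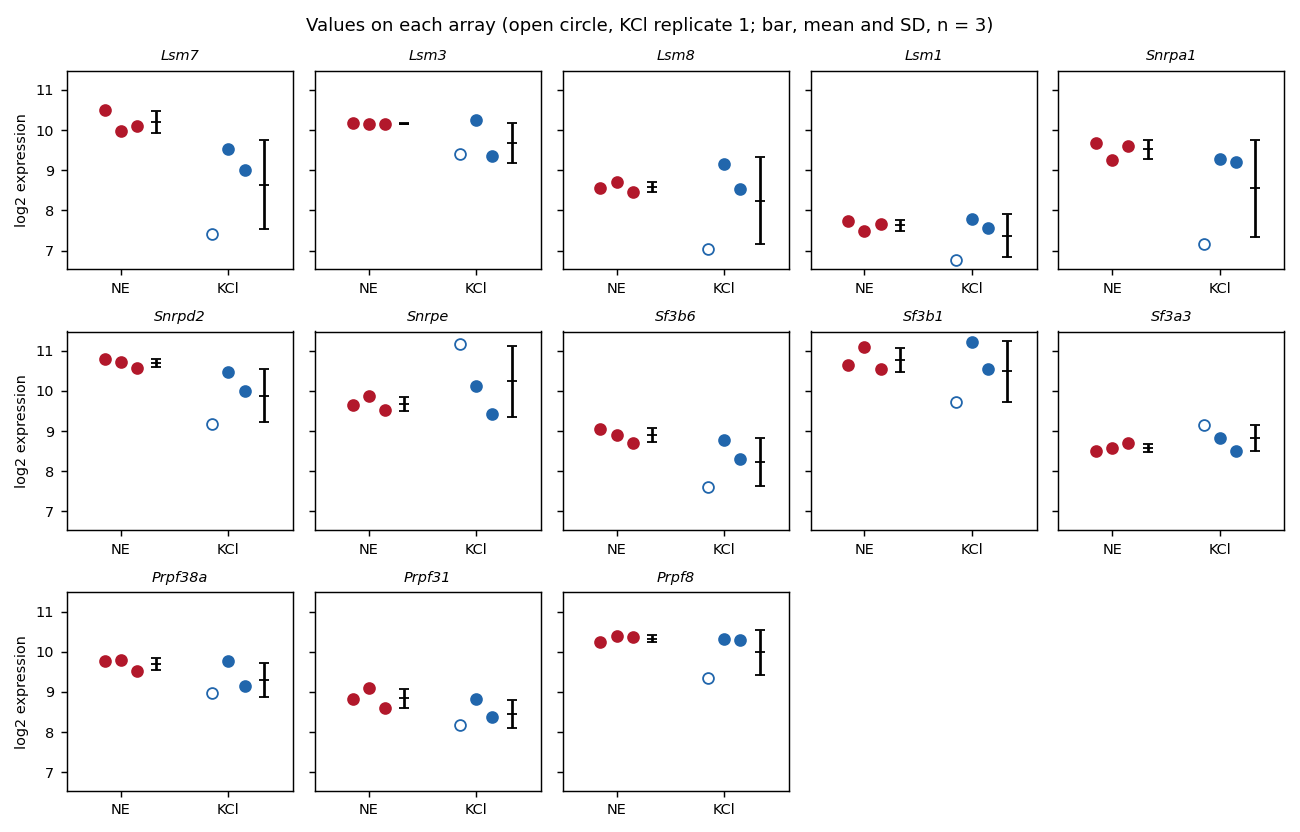
Log2 expression (vertical axis) of 13 genes on each array, norepinephrine in red and KCl in blue, with the mean and SD of 3 arrays beside the points. Open circles are KCl replicate 1, which is the lowest of the 6 points for Lsm7, Snrpa1 and Snrpd2 and the highest for Snrpe at 11.17.

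The Snrp genes encode the Sm ring and the proteins specific to U1 and U2. Snrpd2, for Sm protein D2, read 10.79, 10.72 and 10.58 with norepinephrine and 9.18, 10.48 and 9.99 with KCl on its brightest probe set, 10550601. The groups did not overlap, though norepinephrine replicate 3 lay only just above KCl replicate 2. The difference was 0.81 ± 0.31, or 1.76-fold, and 0.46 ± 0.19, or 1.38-fold, without KCl replicate 1. It ranged from 0.46 to 1.11 over the removal of each array in turn.

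Snrpe, for Sm protein E, went the other way, with 9.65, 9.87 and 9.51 with norepinephrine and 11.17, 10.12 and 9.42 with KCl. KCl replicate 1 was the highest of the 6 arrays and KCl replicate 3 the lowest, so the groups overlapped. The difference of -0.56 ± 0.39 was -0.094 ± 0.23 without KCl replicate 1. Of the other ring genes, Snrpd3 stood at 0.24, Snrpg at 0.15, Snrpd1 at 0.087 and Snrpb at -0.30, and at 0.015, 0.17, 0.12 and -0.17 without that array. Genes of this ring thus lay on both sides of 0 with and without that array. The 6 measured ring genes had a median of 0.12, and of 0.068 without KCl replicate 1, with 4 of 6 above 0 both times.

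Snrpa1 encodes a U2 protein that binds RNA together with the product of Snrpb2. Snrpa1 read 9.69, 9.26 and 9.61 with norepinephrine and 7.15, 9.29 and 9.20 with KCl. KCl replicate 1 stood far below, while the other KCl arrays lay close to norepinephrine replicate 2. Its difference of 0.97 ± 0.51 was 0.27 ± 0.19 without that array. Snrpb2 stood at 0.30 and 0.10 on the same sets of arrays, and of the U1 proteins Snrpa stood at 0.29 and 0.23 and Snrpc at -0.18 and 0.020.

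Snrp had the highest family median of the 4 on 6 arrays, 0.19, with 7 of 10 genes above 0. It was also the brightest family, with a median brightness percentile of 94.2 against 79.3 to 81.3 in the others. On 6 arrays the brightest class of all probe sets had a median of 0.16 with 71.6% above 0. Without KCl replicate 1 that class had a median of -0.015 with 47.6% above 0, and Snrp 0.11 with 8 of 10. The Snrp median was 0.064 after a further quantile normalization and -0.0010 after cyclic loess normalization, so the family's side of 0 depended on the scaling. Family members averaged 9.68 to 9.79 on the norepinephrine arrays and 9.40, 9.70 and 9.51 on the KCl arrays. The levels of KCl replicate 2 thus lay within the range of the norepinephrine arrays.

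**Figure D3:**
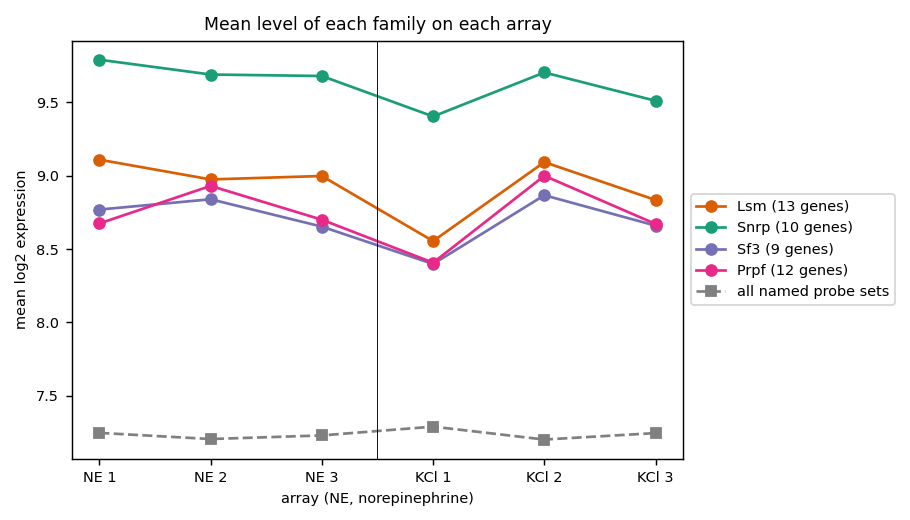
Mean log2 expression (vertical axis) of each family on each of the 6 arrays (horizontal axis), with all named probe sets in grey. The 4 families are at their lowest on KCl replicate 1, at 8.55 for Lsm, 9.40 for Snrp, 8.40 for Sf3 and 8.41 for Prpf, while the grey mean there is 7.29, its highest. Points of each family are joined only to guide the eye.

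The Sf3 genes encode the SF3A and SF3B complexes of the U2 snRNP. Sf3b6 encodes p14, a small protein close to the branch site adenosine, and read 9.06, 8.90 and 8.71 with norepinephrine and 7.61, 8.79 and 8.30 with KCl. KCl replicate 2 lay above norepinephrine replicate 3, so the groups overlapped. The difference was 0.66 ± 0.30, or 1.58-fold, and 0.35 ± 0.20 without KCl replicate 1. It lay between 0.35 and 0.94 over the removal of each array.

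Sf3b1, the large scaffold of SF3B that clasps the branch site, read 10.65, 11.10 and 10.56 with norepinephrine and 9.71, 11.23 and 10.54 with KCl. Replicate 2 was the highest array in both groups, and the arrays overlapped widely. The difference of 0.27 ± 0.36 was -0.12 ± 0.25 without KCl replicate 1. Sf3a3, a subunit of SF3A, read 8.49, 8.58 and 8.70 against 9.14, 8.82 and 8.52, a difference of -0.24 ± 0.21 that was -0.079 ± 0.17 without that array.

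Sf3b3 stood at -0.086 on 6 arrays and at -0.47 without KCl replicate 1, the lowest value of the 44 genes there. Sf3b4 stood at 0.067 and 0.29, and Sf3b2 and Sf3b5 at 0.12 and 0.010 with 0.10 and 0.0089 without the array. The SF3A genes Sf3a1 and Sf3a2 stood at 0.15 and 0.057, and at -0.14 and -0.033 without it, so that 2 of 3 SF3A genes were above 0 on 6 arrays and 0 of 3 without it. Over the 9 Sf3 genes 7 were above 0 with a median of 0.067, and without KCl replicate 1 the count was 4 of 9 and the median -0.033.

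KCl replicate 1 was the lowest of the 6 arrays for 8 of the 12 Prpf genes. Prpf8, the central protein of the U5 snRNP and of the catalytic core, read 10.24, 10.38 and 10.37 with norepinephrine and 9.34, 10.31 and 10.30 with KCl. Apart from KCl replicate 1, all arrays lay close together, and the difference of 0.35 ± 0.28 was 0.024 ± 0.16 without it. Prpf31, a U4/U6 protein needed to form the tri-snRNP, read 8.82, 9.09 and 8.61 against 8.17, 8.83 and 8.36. Its groups overlapped, and the difference was 0.38 ± 0.23, and 0.24 ± 0.21 without KCl replicate 1.

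Prpf3 and Prpf4, further U4/U6 proteins, stood at 0.18 and 0.26, and Prpf6, which bridges U5 and U4/U6, at 0.0046. Without KCl replicate 1 they stood at -0.17, -0.10 and -0.18. All 5 tri-snRNP genes were thus above 0 on 6 arrays with a median of 0.26, and 2 of 5 without KCl replicate 1 with a median of -0.10. KCl replicate 1 was the lowest of the 6 arrays for each of these 5 genes.

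Prpf38a, a protein of the precatalytic spliceosome, read 9.76, 9.79 and 9.51 with norepinephrine and 8.97, 9.77 and 9.15 with KCl. KCl replicate 2 lay among the norepinephrine arrays, and the difference was 0.40 ± 0.24, and 0.23 ± 0.22 without KCl replicate 1. The related Prpf38b read 9.59, 9.69 and 9.52 against 10.01, 9.73 and 9.87, at -0.27 ± 0.18, and -0.20 ± 0.16 without KCl replicate 1. On the probe sets that represent the genes, it was the 1 gene whose KCl arrays on 6 arrays all lay above its norepinephrine arrays.

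The ubiquitin ligase gene Prpf19 stood at 0.15, the kinase gene Prpf4b at -0.040, and Prpf18, which acts in the second step of splicing, at -0.18. The U1-linked Prpf39 and Prpf40b stood at -0.12 and -0.21. Without KCl replicate 1 these 5 genes stood at 0.11, -0.25, -0.18, -0.33 and 0.0028. In all 7 of 12 Prpf genes were above 0 on 6 arrays with a median of 0.077, and 5 of 12 without KCl replicate 1 with a median of -0.13. The median of the family was 0.0095 after a further quantile normalization and -0.00030 after cyclic loess normalization.

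Different probe sets of 1 gene did not always go together, and 7 of the 44 genes had more than 1. Snrpd2 had 5, of which 4 were above 0 on 6 arrays, from -0.075 to 1.28, and 5 were above 0 without KCl replicate 1, from 0.24 to 0.61. On 6 arrays its groups did not overlap on probe sets 10550601 and 10424250 but overlapped on the others. The difference between KCl replicate 1 and the mean of the other KCl arrays ran from -2.42 to -0.20 over the 4 bright probe sets and was 2.06 on the dim one, at the 4.9th percentile of brightness. The Snrpg probe set that represents the gene read 11.88 on KCl replicate 1 and 11.77 and 11.84 on the other KCl arrays, while the other read 8.50, 10.82 and 10.84. The Snrpg differences were 0.15 and 1.02, but 0.17 and 0.24 without KCl replicate 1. On 6 arrays the Snrpg groups overlapped on the representing probe set, while on the other all norepinephrine arrays lay above the KCl arrays.

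The 3 Lsm6 probe sets ranged from -0.19 to 0.41, and from 0.043 to 0.22 without KCl replicate 1. On that array 1 of them read 9.28 and the others 10.86 and 9.75. The Snrpc probe sets were below 0 in 3 of 3 cases, from -0.38 to -0.18, with 1 of 3 above 0 without KCl replicate 1. On Snrpc probe set 10443215, which does not represent the gene, the KCl arrays lay above all norepinephrine arrays, with and without KCl replicate 1. Lsm5 and Sf3b4 had ranges from -0.080 to 0.32 and from -0.18 to 0.067. The sources used here do not say whether these probe sets read separate transcripts or near-identical copies elsewhere in the genome, so the values of these 7 genes are uncertain. With the median over probe sets in place of the brightest, the family medians were 0.22 for Lsm and 0.26 for Snrp. In that setting 2 of the 44 genes had an unadjusted p under 0.05 by limma, beside 3.40% of all named genes. They were Lsm7 and Sf3b6, and Snrpd2 was no longer among them.

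**Figure D4:**
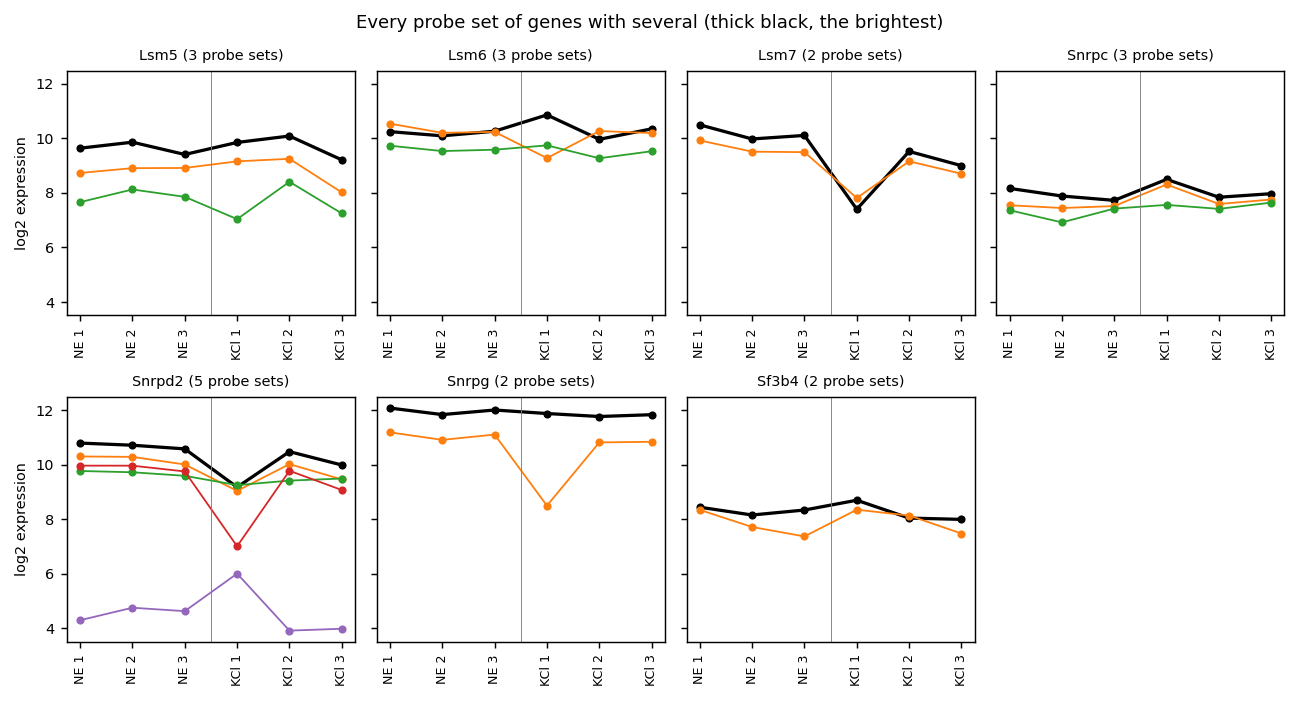
Log2 expression (vertical axis) of every probe set of the 7 genes with more than 1, on each array (horizontal axis), with the brightest as a thick black line. Both lines of Lsm7 are lowest on KCl replicate 1, whereas those of Snrpg and Lsm6 part there, with Snrpg at 11.88 and 8.50. Of the 5 lines of Snrpd2, the dim 1 is at its highest there, at 6.01. The 4 bright ones spread from 7.01 to 9.25 there, against 9.77 to 10.79 on norepinephrine replicate 1.

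The set was bright as a whole. All 44 representing probe sets lay above the median brightness of the named probe sets, from the 57.8th to the 99.5th percentile, and the sign of the median difference of all genes followed brightness. It was -0.19 in the dimmest of 5 equal brightness classes and 0.16 in the brightest, and -0.0020 and -0.015 in these classes without KCl replicate 1. The 44 genes' median of 0.10 lay between the 0.046 of the second brightest class and the 0.16 of the brightest. The median shift of KCl replicate 1 from the other KCl arrays was -0.35 for the 44 genes and -0.58 in the brightest class.

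**Figure D5:**
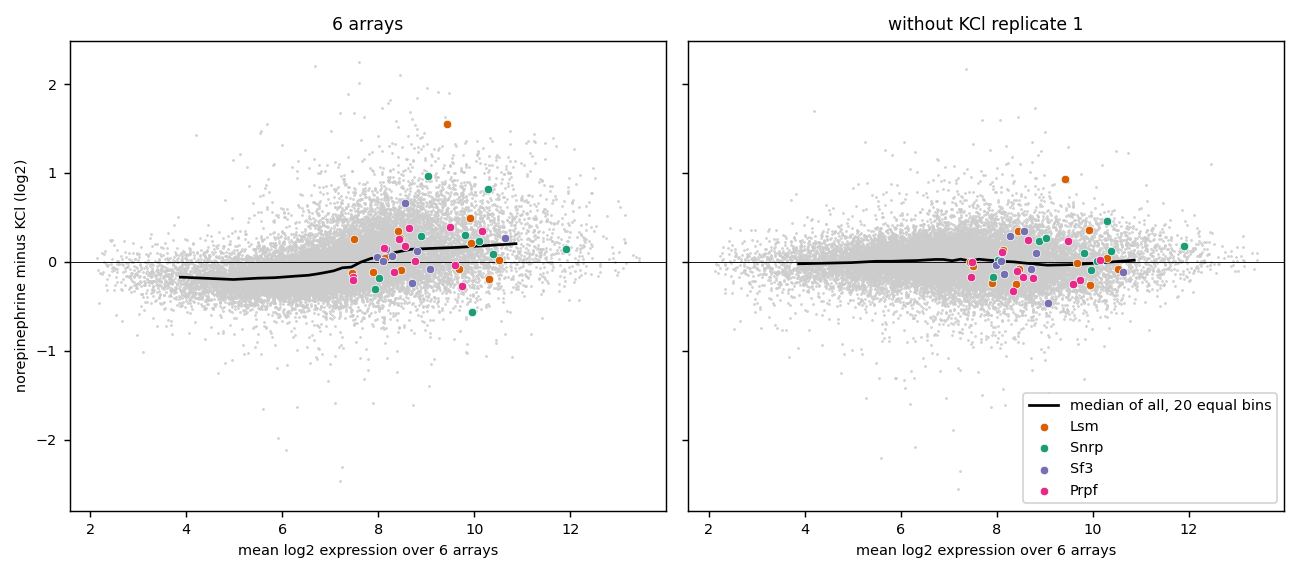
Norepinephrine minus KCl (vertical axis, log2) against mean log2 expression over 6 arrays (horizontal axis) for all named probe sets in grey and the 4 families in colour, on 6 arrays at left and without KCl replicate 1 at right. The black line is the median of all in equal bins, which rises with brightness at left and lies near 0 at right, and Lsm7 stands off it in both panels, at 1.55 and 0.93.

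Partners of these proteins were read from 7 lists, with the 2 genes of smallest p named for each, and 0 genes of any list passed over all probe sets, with and without KCl replicate 1. At an unadjusted p under 0.05 by limma there were 2 of the 136 genes on 6 arrays, Snrnp25 and, toward KCl, Ptbp2, beside 3.43% of all probe sets. There were 3 without KCl replicate 1, Txnl4b and, toward KCl, Ptbp2 and Ddx42, beside 4.63%. The SMN complex and its helpers load Sm rings onto snRNA. The list read for them also holds genes with other roles, such as Phax, Tgs1, Snupn and Coprs. All 16 measured genes of this list were above 0 on 6 arrays, with a median of 0.24. In the second brightest and the brightest class 57.9% and 71.6% of all probe sets were above 0. Without KCl replicate 1 it was 11 of 16 with a median of 0.13. KCl replicate 1 was the lowest of the 6 arrays for 11 of these 16 genes. Gemin2, a core member of the SMN complex, stood at 0.43 ± 0.24, and 0.31 without that array, and Coprs, a partner of the methyltransferase Prmt5, at 0.43 ± 0.26 and 0.22.

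Of 22 measured genes of other proteins of or linked to the U1, U2, tri-snRNP and minor U11/U12 particles, 15 were above 0, with a median of 0.13, and 14 without KCl replicate 1, with a median of 0.013. Snrnp25, of the U11/U12 snRNP, read 9.59, 8.99 and 8.99 with norepinephrine and 7.87, 8.86 and 8.58 with KCl. Its groups did not overlap, and the difference was 0.76 ± 0.29, and 0.47 without KCl replicate 1. Txnl4b, a thioredoxin-like relative of a U5 protein, stood at 1.21 ± 0.56 and 0.43. In the list of the Prp19 complex and spliceosome remodelling 15 of 25 were above 0 with a median of 0.057, and 9 of 25 with a median of -0.11 without KCl replicate 1. Syf2 stood at 0.39 ± 0.20 and 0.37, and Cwc15 at 0.79 ± 0.41 and 0.33.

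Regulators of splice site choice lay on both sides of 0, most of them below it without KCl replicate 1. The brightest class of all probe sets had 71.6% above 0 on 6 arrays and 47.6% without KCl replicate 1. The list of SR splicing regulators holds genes of SR and related proteins and of the Clk and Srpk kinases. Of its 19 measured genes 15 were above 0 on 6 arrays and 3 without KCl replicate 1, with medians of 0.073 and -0.084. Among them Tra2a stood at 0.61 ± 0.39 and Srsf9 at -0.38 ± 0.27, and at 0.19 and -0.11 without that array. Of 23 hnRNP genes 15 and 3 were above 0, with medians of 0.076 and -0.13. Without KCl replicate 1 the groups did not overlap for 8 hnRNP genes and 1 SR gene, all with KCl higher. Of all probe sets 8.08% did so toward KCl, and in the brightest class 493 of 4328. Ptbp2, the neural relative of the splicing repressor Ptbp1, read 9.98, 9.86 and 9.87 with norepinephrine and 10.40, 10.20 and 10.35 with KCl. All 3 KCl arrays lay above the norepinephrine arrays, at -0.41 ± 0.18, and -0.37 without KCl replicate 1. Ptbp1 stood at 0.36 ± 0.29 and 0.029.

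Partners of the cytoplasmic Lsm ring in decapping and decay had 10 of 21 members above 0 with a median of -0.0040, and 5 of 21 with a median of -0.14 without KCl replicate 1. Edc3, an enhancer of decapping, stood at -0.30 ± 0.18 and -0.24, and Dcp1a, a cofactor of the decapping enzyme, at 0.60 ± 0.40 and 0.071. Partners of Lsm10 and Lsm11 in histone RNA processing had 6 of 10 above 0 with a median of 0.12, and 4 of 10 with -0.028 without that array. Cpsf3, the nuclease that cuts the RNA, stood at 0.44 ± 0.24 and 0.20, and Cstf2 at 0.30 ± 0.25 and 0.084.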

How the data were processed

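Gene expression was measured on 6 whole-transcript arrays, 3 per treatment, grouped by their titles. The deposited values are log2 expression per probe set. Per the submitters' processing notes, Partek and RMA were used (correction for background, quantile normalization, then 1 value per probe set). Their versions, settings and genome build were not found in the sources used here. Quantile normalization of these 6 arrays together would leave them with nearly equal distributions. Yet the interquartile range was 1.48 on KCl replicate 1 and 1.94 to 2.39 elsewhere, so such a step is not visible in the values. The cause was not tested. What is called a further quantile normalization was made here, on these values. Of 34760 probe sets, 21640 had 1 symbol in the platform table, 1321 several and 11799 none, and 21553 were matched by Entrez identifier to RefSeq.

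The treatments were compared with limma 3.58.1 under R 4.3.3 (lmFit, then eBayes, no covariate, two-sided) on all 21640 named probe sets, adjusted by Benjamini-Hochberg at a threshold of 0.05, and the procedure was tested on simulated data. Families were described by counts and medians, without a set test. Values on every array are given for the 3 genes of largest absolute difference per family, genes at an unadjusted p under 0.05, and Lsm1, Lsm8, Sf3b1 and Prpf8. Those of Prpf38b, Snrnp25, Ptbp2 and second probe sets were added after they were seen. Families, roles, partner lists and markers were chosen with earlier results of these data known. Alternatives were other scalings, filters, variance models, weights, probe sets, the replicate block and leaving out each array.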

Additional observations from a re-analysis of the deposited data

How the results depend on the processing

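With 6 arrays, 0 of 21640 named probe sets had an adjusted p under 0.05 by limma, 743 had an unadjusted p under 0.05, and the number of arrays limits the precision of each difference. Without each array in turn the adjusted count ranged from 0 to 4, the latter without KCl replicate 1. The count of the 44 genes at an unadjusted p under 0.05, which was 2, ranged from 1 to 9 in the same way. It was 1, Lsm7, with arrays centred on their medians. Weighting the arrays gene by gene, chosen after the data were seen, gave 13 of the 44 genes at an unadjusted p under 0.05, beside 23.9% of all probe sets, and 1454 probe sets of all 21640 at an adjusted p under 0.05, with a weight of 6.76 on KCl replicate 3 and 0.158 on KCl replicate 1. The planned default weights did not converge, with a weight of 673 on KCl replicate 3, and were not used. With the replicate block 3 of the 44 genes had an unadjusted p under 0.05, beside 6.64% of all probe sets, and 0 of all probe sets had an adjusted p under 0.05. The replicate numbers were not taken as pairs, because equal numbers are not stated to mark a shared animal or culture. Deviations of same-numbered arrays correlated at 0.301, 0.626 and 0.085, and norepinephrine replicate 3 correlated best with KCl replicate 1, at 0.311. With 3 arrays per group these correlations cannot decide whether the arrays were paired.

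The Snrp median of 0.19 was 0.064 after a further quantile normalization and -0.0010 after cyclic loess normalization, the latter chosen after the data were seen. The medians of all named probe sets were -0.026 and 0.0030 there, and -0.037 with arrays centred. Without each array in turn the Lsm median ranged from -0.012 to 0.11, Snrp from 0.11 to 0.26, Sf3 from -0.033 to 0.13 and Prpf from -0.13 to 0.17. Those of Lsm, Sf3 and Prpf were below 0 without KCl replicate 1. With 1 KCl array left out, the remaining 2 carry the spread of that group. Values of signal over background were not used, so no probe set was called undetected.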
